A study of Canis lupus familiaris with 7 samples.

Results

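Canine osteosarcomas, bone tumours that arise in pet dogs, were examined for RNA of the insulin-like growth factor (IGF) axis. The genes listed were the ligands IGF1 and IGF2, the receptors IGF1R and IGF2R, and the binding proteins IGFBP2 to IGFBP7, which made 10 genes. Members were all non-control probes filed under exactly these symbols. This gave 13 probes of 8 genes, out of 43603 probes on the array, and all 13 were well above background in all 7 tumours. IGFBP3 and IGFBP6 had no probe under their symbols. For each of them 1 probe without a symbol was found by its text description after the files were read, and these 2 probes are given apart from the 13.

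Each of the 7 primary tumours was hybridised to 1 single-colour Agilent array, and values are log2 intensities after background correction and quantile normalization between arrays. A probe's intensity rises with the RNA of its gene, but levels of different probes cannot be set against each other. In 4 tumours DLG2, a membrane scaffold gene, was deleted, and in 3 it was wild type, per the labels. The deleted tumours came from a German Shepherd and Collie cross of 8 years (tumour 1, sex label MC), a Rottweiler cross of 9 years (tumour 2, FS), a Greyhound of 6 years (tumour 3, MC) and a Great Pyrenees of 7 years (tumour 4, FS). The wild-type tumours came from a Boxer of 12 years (tumour 1, FS), a Labrador Retriever cross of 10 years (tumour 2, FS) and a Bull Mastiff of 8 years (tumour 3, MC). Each dog gave 1 tumour, no normal bone was used here, and no treatment is named in the labels. These are whole tumours, so fewer cells of a type and less RNA per cell cannot be told apart.

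IGF1 and IGF2 are small secreted proteins that resemble insulin. Both activate IGF1R, a receptor tyrosine kinase that signals through insulin receptor substrates to the PI3K, AKT and mTOR pathway and promotes growth and survival. IGF2R, also known as the cation-independent mannose 6-phosphate receptor, has no kinase domain, carries lysosomal enzymes and takes IGF2 to the lysosome. The binding proteins hold the ligands in blood and matrix and release them when proteases cut them. Osteoblasts make and respond to these factors, and bone matrix stores them.

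Probes of some of the genes described below are shown as the array files give them, 5′ to 3′, with positions on the canFam2 build. IGF2R carried the largest differences that leaned lower in deleted tumours. Its 3 probes all lie within a short stretch of chromosome 1 on the plus strand. The one printed lies at chr1:52302915-52302974 and gave the smallest difference of the 3 (-0.77).
IGF2R A_11_P0000028218: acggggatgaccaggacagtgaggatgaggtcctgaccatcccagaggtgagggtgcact
IGF1 was read by 2 probes at separate places on chromosome 15, minus strand, of which the brighter is printed. It lies at chr15:44213568-44229355 and is 60 bases long but covers 15788 bases of the genome, as a probe across a splice junction does.
IGF1 A_11_P0000021124: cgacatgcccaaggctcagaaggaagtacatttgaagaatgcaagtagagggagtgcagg
IGFBP2 (chr37:26566798-26568442, plus strand) and IGFBP5 (chr37:26579422-26579481, minus strand) varied most between tumours, and their probes are 10979 bases apart. IGFBP3 (chr16:4015873-4016521, plus strand) is shown beside them because the same 6 bases, CAGTGC in capitals, occur in all 3.
IGFBP2 A_11_P0000031874: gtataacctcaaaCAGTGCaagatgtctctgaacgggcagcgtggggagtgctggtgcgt
IGFBP5 A_11_P0000031875: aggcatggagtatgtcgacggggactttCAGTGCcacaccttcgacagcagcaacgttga
IGFBP3 A_11_P0000034467: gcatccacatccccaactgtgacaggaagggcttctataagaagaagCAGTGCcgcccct
CAGTGC was picked after the sequences had been seen. It occurred in 3 of the 15 IGF axis probes and, on the printed strand, in 1.59% of all 43603 probes (2.99% on either strand). Exon and untranslated region annotation of canFam2 was not used here.

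The arrays held between 30280 and 34538 probes well above background, and 0 spots were saturated. DLG2 itself had 1 probe, which read 10.38, 11.44, 10.51 and 10.84 across the deleted tumours (1 to 4) and 10.91, 12.03 and 11.75 across the wild-type tumours (1 to 3). The groups overlapped (difference -0.77, limma adjusted p = 0.711), and by its coordinates the probe lies outside the interval that the study names as deleted in dogs, whose build is not stated. Wild-type tumours 1 and 2 were more alike (Pearson r over probes 0.987) than the other 20 pairs (0.936 to 0.966), although the labels give different dogs. The osteoblast genes ALPL, COL1A1 and COL1A2 were well above background in all 7 tumours. SP7, IBSP and DMP1 had no kept probe.

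Over all 32309 kept probes limma called 0 (0% of those tested) at an unadjusted p below 0.05 with an adjusted p below 0.1, and accordingly 0 of the 13 IGF axis probes were called. Their adjusted p lay between 0.583 and 0.998, against a smallest value of 0.117 over all probes. At an unadjusted p below 0.05, 2 of the 13 probes were lower in deleted tumours, both of IGF2R, where 4.17% of all probes were. None of the 13 was higher at that p, where 3.12% of all probes were. Complete separation of the groups with deleted tumours lower was seen for 1 of the 13, an IGF2R probe, against 4.25% of all probes. Separation with deleted tumours higher was seen for 0 of the 13, against 3.93%. The difference was negative for 9 probes and positive for 4, where 15801 of all 32309 kept probes were negative. The median was -0.31 on the log2 scale beside 0.01 over all kept probes. The negative probes belonged to IGF1, IGF2, IGF1R, IGF2R and IGFBP2, and the positive ones to IGFBP4, IGFBP5 and IGFBP7. IGF1, IGF1R, IGF2R and IGFBP4 had more than 1 probe each, so these are not counts of genes.

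**Figure D1:**
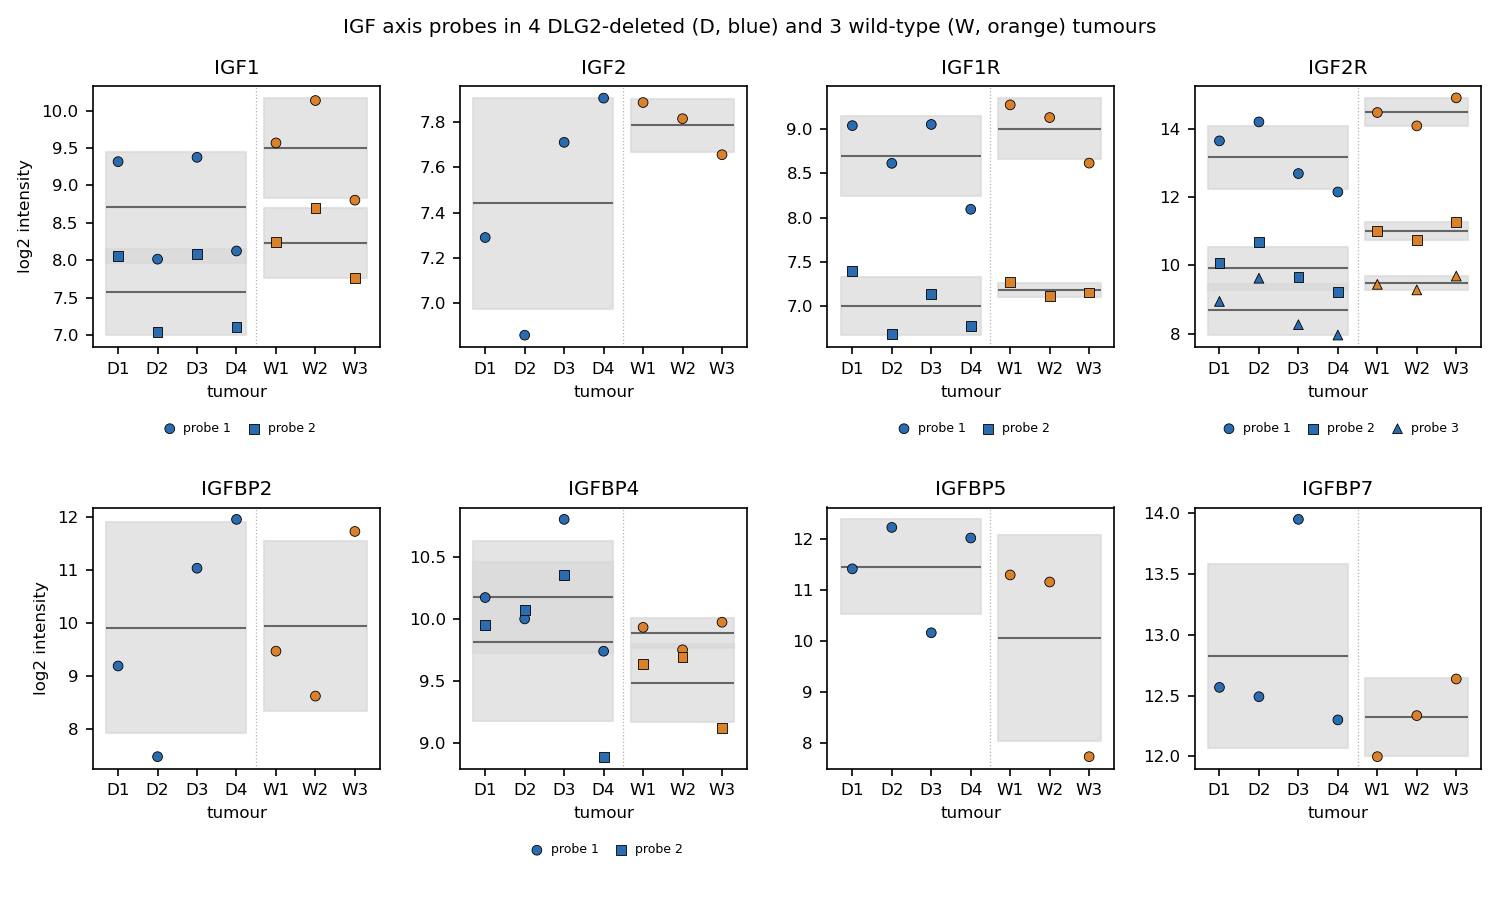
Log2 intensity (y axis) of the 13 IGF axis probes in each of the 7 tumours (x axis: D1 to D4 deleted, blue; W1 to W3 wild type, orange), with a marker shape per probe, lines at group means and grey bands of 1 SD. The 3 IGF2R probes run in parallel and are highest in wild-type tumour 3, whereas IGFBP2 and IGFBP5 spread over more than 4 log2 units within the 7 tumours.

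Among the ligands, IGF1 read lower on average in deleted tumours, but the groups overlapped. Its brighter probe had a log2 intensity of 9.32, 8.02, 9.38 and 8.12 across deleted tumours 1 to 4, against 9.57, 10.13 and 8.80 across wild-type tumours 1 to 3. Deleted tumours 2 and 4 were the lowest, and deleted tumours 1 and 3 lay above wild-type tumour 3. The group means were 8.71 ± 0.74 (SD, n = 4) and 9.50 ± 0.67 (SD, n = 3). The difference of -0.79 (SE 0.47, 95% interval -1.91 to 0.33) did not pass the test (limma adjusted p = 0.792; exact permutation p = 0.229, two-sided). The second probe gave the same order of highest and lowest tumour, with 8.06, 7.05, 8.08 and 7.11 among the deleted and 8.25, 8.70 and 7.76 among the wild-type tumours. It differed by -0.66 (SE 0.36, limma adjusted p = 0.766). The gap between the probes varied over the tumours with an SD of only 0.18, so both read the same pattern. Within extraction session 1, which held wild-type tumour 2 and the other 3 deleted tumours, the differences were -1.63 and -1.28. With slide as a block, which compares deleted tumours 2 and 3 with wild-type tumour 2 alone, they were -1.44 and -1.13. Within session 2, which held deleted tumour 1 and wild-type tumours 1 and 3, they turned to 0.13 and 0.053. Without wild-type tumour 2 they were -0.48 and -0.43.

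IGF1 differed in opposite directions between the sex labels. Among tumours labelled FS the brighter probe was lower in deleted tumours by 1.78 on the log2 scale (means 8.07 and 9.85), whereas among those labelled MC it was higher by 0.54 (means 9.35 and 8.80). The interaction of DLG2 status with sex label was -2.32 (SE 0.34) for this probe and -1.70 (SE 0.29) for the second. Neither passed after adjustment over all probes (limma adjusted p = 0.350 and 0.353), nor did any probe on the array (smallest limma adjusted p = 0.315). At an unadjusted p below 0.05 the interaction was seen for 4 of the 13 IGF axis probes and for 7.97% of 32303 probes. The 4 were the 2 IGF1 probes, 1 of IGF1R and that of IGFBP5. IGFBP5 did not change direction, being higher in deleted tumours by 0.90 among FS and by 3.05 among MC. An opposite order of the groups without overlap in both labels was seen for 3 of the 13, the 2 IGF1 probes and 1 of IGF1R, against 12.8% of all probes. All of these comparisons rest on wild-type tumour 3 as the only wild-type tumour labelled MC.

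**Figure D2:**
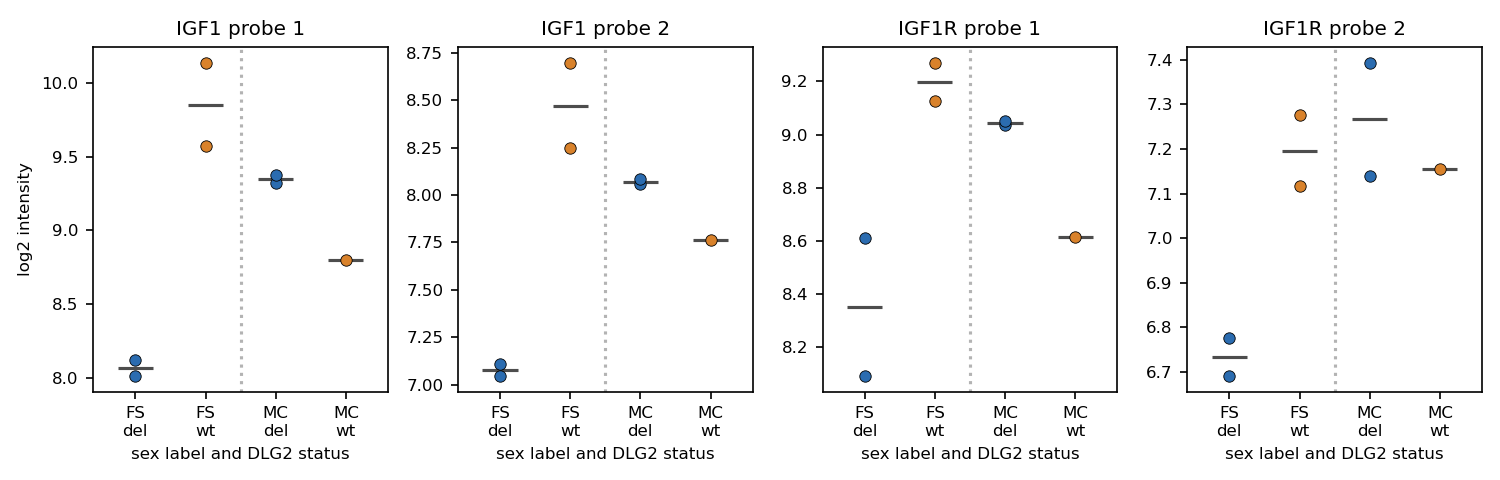
Log2 intensity (y axis) of the IGF1 and IGF1R probes by sex label and DLG2 status (x axis; del, deleted; wt, wild type), with 1 point per tumour and a line at each mean. For both IGF1 probes and the first IGF1R probe, deleted tumours lie below wild type among FS and above it among MC, where wild type is a single tumour.

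IGF2, the ligand that both receptors bind, had 1 probe (chr18:49320545-49320604, minus strand). Its log2 intensity across deleted tumours 1 to 4 was 7.29, 6.86, 7.71 and 7.91, against 7.89, 7.82 and 7.66 across wild-type tumours 1 to 3. Deleted tumours 1 and 2 lay below the wild-type range, deleted tumour 3 inside it and deleted tumour 4 above it. The difference of -0.35 (SE 0.25, 95% interval -0.95 to 0.26) did not pass the test (limma adjusted p = 0.856). It was -0.15 without deleted tumour 2. H19, a noncoding RNA transcribed next to IGF2 from the imprinted locus, is given here after its values were seen. Its probe, 92353 bases from that of IGF2, read 7.88, 14.71, 11.45 and 6.78 across deleted tumours 1 to 4, against 12.88, 11.80 and 7.77 across wild-type tumours 1 to 3. Deleted tumour 2 was highest for H19 and lowest for IGF2, and deleted tumour 4 the reverse, whereas among the other 5 tumours deleted tumour 1 and wild-type tumour 3 were the lowest and wild-type tumour 1 the highest for both genes. The group difference of H19 was -0.61 (SE 2.14, limma adjusted p = 0.976).

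The receptor IGF1R was read by 2 probes on chromosome 3 (plus strand), at chr3:44947023-44947081 and chr3:44928701-44933280. The first had log2 intensities of 9.04, 8.61, 9.05 and 8.09 across deleted tumours 1 to 4, against 9.27, 9.13 and 8.61 across wild-type tumours 1 to 3. Wild-type tumour 1 was highest and deleted tumour 4 lowest, and the groups overlapped. The difference was -0.31 (SE 0.28, 95% interval -0.97 to 0.36, limma adjusted p = 0.897). It was -0.10 without deleted tumour 4, -0.17 without wild-type tumour 1 and -0.50 without wild-type tumour 3. The second probe had 7.39, 6.69, 7.14 and 6.78 in deleted and 7.28, 7.12 and 7.15 in wild-type tumours and differed by -0.18 (SE 0.18, limma adjusted p = 0.903). Without deleted tumours 1, 2 or 4 it differed by -0.31, -0.079 and -0.11. The probes disagreed on the highest and the lowest tumour, and the second read highest in deleted tumour 1. The interaction with sex label was -1.28 (SE 0.33, limma adjusted p = 0.468) for the first probe.

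IGF2R gave the largest difference among the receptors and ligands, and its mean was lower in deleted tumours at all 3 probes. The brightest (A_11_P171358, chr1:52303511-52303570) had a log2 intensity of 13.64, 14.20, 12.69 and 12.15 across deleted tumours 1 to 4, against 14.47, 14.08 and 14.90 across wild-type tumours 1 to 3. Only deleted tumour 2 reached into the wild-type range. The means of 13.17 ± 0.92 (SD, n = 4) and 14.48 ± 0.41 (SD, n = 3) differed by -1.32 (SE 0.50, 95% interval -2.51 to -0.12), or 2.49-fold. Neither the fit over all probes (limma p = 0.0355 unadjusted and 0.660 adjusted) nor the exact permutation test (p = 0.114, two-sided) passed.

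At the second IGF2R probe (A_11_P000002443, chr1:52303921-52303980) the groups were separate. It read 10.07, 10.69, 9.66 and 9.22 in deleted and 11.00, 10.73 and 11.26 in wild-type tumours, so that deleted tumour 2 and wild-type tumour 2 lay only narrowly apart. The difference was -1.09 (SE 0.34, 95% interval -1.90 to -0.27), a 2.13-fold lower mean in deleted tumours (limma adjusted p = 0.583). The unadjusted limma p was 0.0161, and the exact permutation p was 0.0571, which no grouping of 4 and 3 tumours can undercut. The third probe, whose sequence is printed above, read 8.95, 9.62, 8.27 and 7.96 in deleted and 9.45, 9.28 and 9.69 in wild-type tumours. Its difference was -0.77 (SE 0.39, 95% interval -1.70 to 0.16, limma adjusted p = 0.754), and deleted tumour 2 lay above 2 of the 3 wild-type tumours.

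All 3 IGF2R probes were highest in wild-type tumour 3 and lowest in deleted tumour 4. No alternative setting or left-out tumour turned the sign of any of them, with ranges of -1.66 to -0.64, -1.40 to -0.56 and -1.08 to -0.34 in the order given. With slide as a block only slide 4 held both groups, so deleted tumours 2 and 3 were set against wild-type tumour 2. The differences there were smaller, at -0.64, -0.56 and -0.34. Osteoclasts are rich in lysosomal enzymes, and most markers of this cell type also stood at their highest in wild-type tumour 3. Of the 8 osteoclast genes listed 5 were measured, of which ACP5, CTSK, MMP9 and ATP6V0D2 were highest there, while CALCR was highest in deleted tumour 1 (7.23, against 7.16 in wild-type tumour 3). The log2 of their summed intensity ranged from 13.38 in deleted tumour 4 to 16.09 in deleted tumour 3, and from 14.98 to 17.80 in wild-type tumours with wild-type tumour 3 at the top. The 2 orders parted within the deleted group. Deleted tumour 3 had the highest osteoclast sum there but read below deleted tumours 1 and 2 at all 3 IGF2R probes. The part of osteoclast content in the IGF2R values was not tested. Without wild-type tumour 3 the 3 differences were -1.11, -0.96 and -0.66.

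**Figure D3:**
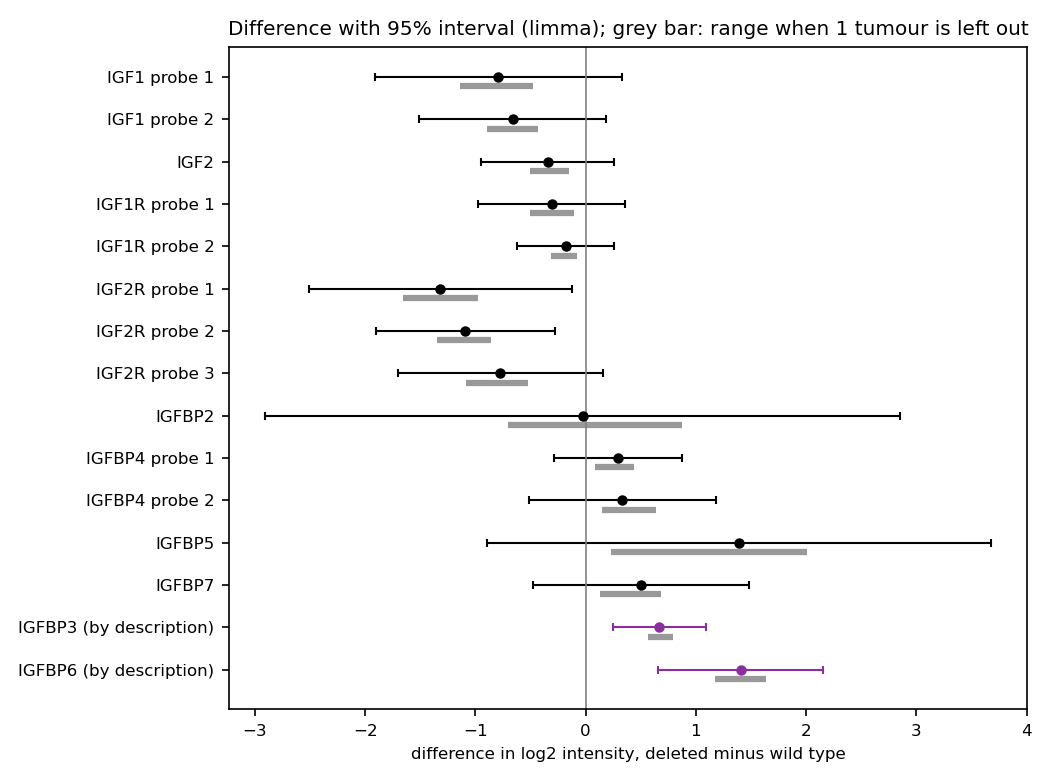
Difference in log2 intensity, deleted minus wild type (x axis), of each IGF axis probe (y axis) with its 95% limma interval, and a grey bar for the range when 1 tumour is left out. The intervals of the first 2 IGF2R probes lie below 0 and those of IGFBP3 and IGFBP6, found by description (purple), lie above 0, but 0 passed the test over all probes.

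The binding proteins were split between large tumour-to-tumour variation and small differences. IGFBP2, which binds IGF2 more tightly than IGF1, had log2 intensities of 9.19, 7.48, 11.04 and 11.96 across deleted tumours 1 to 4, against 9.47, 8.63 and 11.73 across wild-type tumours 1 to 3. Both groups held high and low tumours, and the range over the 7 was 4.48. The difference was -0.025 with an interval of -2.90 to 2.85 (SE 1.21, limma adjusted p = 0.998), which leaves differences of several log2 units in either direction undecided. Its sign turned in 7 of 22 alternatives.

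IGFBP5, whose gene is the neighbour of IGFBP2 and whose protein binds bone mineral and matrix, had log2 intensities of 11.41, 12.23, 10.16 and 12.02 across deleted tumours 1 to 4, against 11.29, 11.16 and 7.74 across wild-type tumours 1 to 3. Wild-type tumour 3 stood far below the others. The difference of 1.39 (SE 0.96, 95% interval -0.89 to 3.68) did not pass (limma adjusted p = 0.841; exact permutation p = 0.343, two-sided). It was 0.23 without wild-type tumour 3 and 3.30 with age as a covariate. With slide as a block, deleted tumours 2 and 3 against wild-type tumour 2 alone, it was 0.037. Although their genes adjoin, IGFBP2 and IGFBP5 deviated in the same direction in only 1 of the 7 tumours. As deviations from the mean of the 7 tumours, deleted tumour 2 was at -2.45 for IGFBP2 and 1.37 for IGFBP5, and wild-type tumour 3 at 1.80 and -3.12. In deleted tumour 4 both were above their means, by 2.03 and 1.16.

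**Figure D4:**
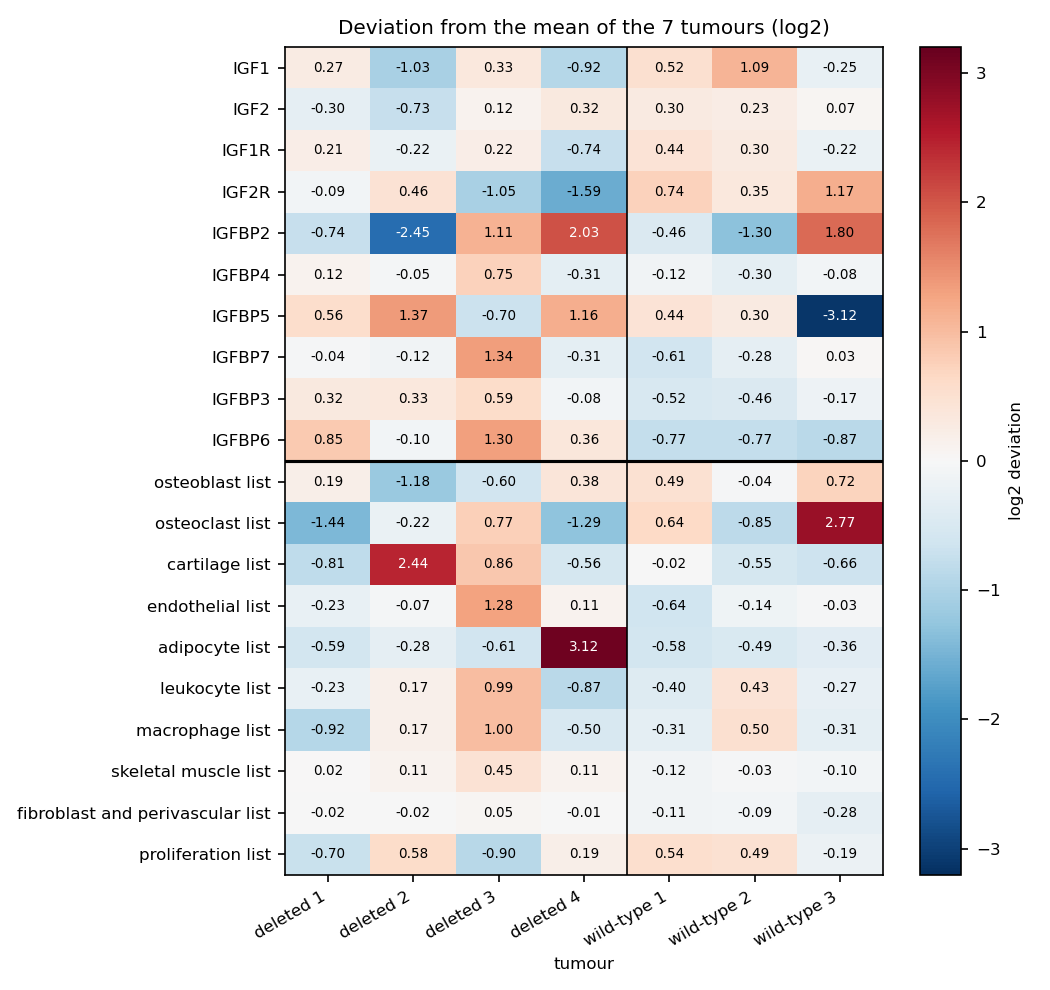
Log2 deviation from the mean of the 7 tumours (colour and number) in each tumour (x axis) for the IGF axis genes, 1 probe per gene, and below the line the median deviation of the measured genes of each tissue list (y axis). IGFBP5 stands lowest in wild-type tumour 3, where the osteoclast list stands highest at 2.77, and IGFBP2 is highest in deleted tumour 4, where the adipocyte list stands at 3.12. In wild-type tumour 3 IGFBP2 stands at 1.80 and the adipocyte list at -0.36.

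In deleted tumour 4, which held the highest IGFBP2, most fat cell markers stood apart as well. Of the 6 adipocyte genes listed 5 were measured, of which 4 were highest in that tumour and LEP lowest (7.96, against 8.00 to 8.26 elsewhere). The log2 of their summed intensity was 13.91 there, against at most 10.03 in the other deleted and 9.85 in the wild-type tumours. ADIPOQ, the fat cell hormone adiponectin, read 13.37 there and between 6.92 and 7.85 elsewhere. IGFBP2 was also high in wild-type tumour 3 (11.73) and deleted tumour 3 (11.04), where the summed fat cell markers read only 9.85 and 10.03. GHR, the growth hormone receptor that drives IGF1 synthesis in liver, is named here after its values were seen. It was also highest in deleted tumour 4, at 9.50 against 7.21 to 8.11 in the other tumours. The part of fat content in these values was not tested.

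IGFBP4, an inhibitory binding protein that the protease PAPPA cleaves, was read by 2 probes on chromosome 9 (minus strand, chr9:25498192-25498251 and chr9:25498739-25498798). The first read 10.17, 10.00, 10.80 and 9.74 in deleted and 9.93, 9.75 and 9.97 in wild-type tumours, and differed by 0.29 (SE 0.25, 95% interval -0.29 to 0.88, limma adjusted p = 0.880). The second read 9.95, 10.07, 10.35 and 8.89 in deleted and 9.64, 9.69 and 9.12 in wild-type tumours, and differed by 0.33 (SE 0.36, 95% interval -0.52 to 1.18, limma adjusted p = 0.907). Both were highest in deleted tumour 3 and lowest in deleted tumour 4, so the deleted group enclosed the wild-type group. Without deleted tumour 3 the differences were 0.085 and 0.15, and that of the second probe was 0.15 without wild-type tumour 3 and 0.64 without deleted tumour 4.

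IGFBP7, a low-affinity binding protein made by blood vessels among other tissues, was read at chr13:52071557-52079434 (minus strand). Its log2 intensity was 12.57, 12.49, 13.95 and 12.30 in deleted and 12.00, 12.34 and 12.64 in wild-type tumours. Deleted tumour 3 stood above the rest, and the remaining tumours overlapped. The difference was 0.50 (SE 0.41, 95% interval -0.48 to 1.48, limma adjusted p = 0.875) and 0.13 without deleted tumour 3. Of the 8 endothelial genes listed 6 were measured, and the log2 of their summed intensity was highest in the same tumour, at 14.52, against 13.05 to 13.62 in the other deleted and 12.59 to 13.28 in the wild-type tumours. The summed leukocyte (12.68), macrophage (13.69) and cartilage (15.50) markers were also at their highest in deleted tumour 3. Of the measured cartilage genes, however, only COL2A1 (15.13) was highest there. SOX9, ACAN, COL9A1, MATN3 and HAPLN1 were highest in deleted tumour 2, and CHAD in deleted tumour 4. By median deviation the cartilage list stood highest in deleted tumour 2, at 2.44 against 0.86 in deleted tumour 3. The part of these cell types in the IGFBP7 value was not tested. With normexp and 75th percentile scaling the median of all probes stood at 0.32, and relative to it both IGFBP4 probes (-0.28 and -0.21) and IGFBP7 (-0.12) lay on the negative side. With the processed intensity and the same scaling that median was -0.06, and the 3 differences were 0.28, 0.33 and 0.56.

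The 2 binding proteins found by description were higher in all 4 deleted tumours than in all 3 wild-type tumours, an order seen in 3.93% of all kept probes, and neither passed the test over all probes. IGFBP6, which prefers IGF2 as its ligand, had a probe at chr27:5067406-5067460 (minus strand). It read 12.49, 11.55, 12.95 and 12.00 across deleted tumours 1 to 4, against 10.88, 10.87 and 10.78 across wild-type tumours 1 to 3. The wild-type tumours lay close together, and the lowest deleted tumour was above them. The means of 12.25 ± 0.60 (SD, n = 4) and 10.84 ± 0.06 (SD, n = 3) differed by 1.41 (SE 0.32, 95% interval 0.65 to 2.16), or 2.65-fold (limma adjusted p = 0.490). The unadjusted limma p was 0.0032 and the exact permutation p 0.0571. Over 22 alternatives the difference ranged from 1.09 to 1.67 with 0 calls. Because these probes were looked for once other values were known, their separation is a description.

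IGFBP3, the main carrier of IGF1 in blood, had log2 intensities of 7.52, 7.53, 7.78 and 7.12 in deleted and of 6.68, 6.74 and 7.03 in wild-type tumours. Deleted tumour 4 and wild-type tumour 3 came closest without overlap. The difference was 0.67 (SE 0.18, 95% interval 0.25 to 1.09), or 1.59-fold (limma adjusted p = 0.503). The unadjusted limma p was 0.0070 and the exact permutation p 0.0571. Over the alternatives the difference ranged from 0.50 to 1.80, the largest with the scanner's processed intensity. IGFBP1, whose probe lies 10976 bases from that of IGFBP3, was near the bottom of the scale in all tumours (6.52 to 6.81). The IGFBP3 values of wild-type tumours 1 and 2 (6.68 and 6.74) lay in that same range. The size of the IGFBP3 difference therefore rests in part on readings near the floor. Of the 6 fibroblast and perivascular markers listed 5 were measured, and each of them overlapped between the groups. The log2 of their summed intensity, led by CSPG4, was 10.19 to 10.42 in deleted and 9.80 to 10.15 in wild-type tumours, and their part in the IGFBP3 and IGFBP6 values was not tested.

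Other genes of the axis were taken from a list of 75 by known role, of which 63 were on the array and 59 had a kept probe. Again 0 were called. At an unadjusted p below 0.05, 6 were higher and 1 lower in deleted tumours, where over all 10140 genes 3.63% were higher and 3.92% lower. The groups were separate for 7 genes with deleted tumours higher and for 1 with deleted tumours lower, against 4.12% and 3.58% of all genes. The differences were positive for 38 and negative for 21, with a median of 0.10 beside 0.02 over all genes. The list was chosen with earlier results of these data known, so these counts describe the listed genes and do not test the axis.

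**Figure D5:**
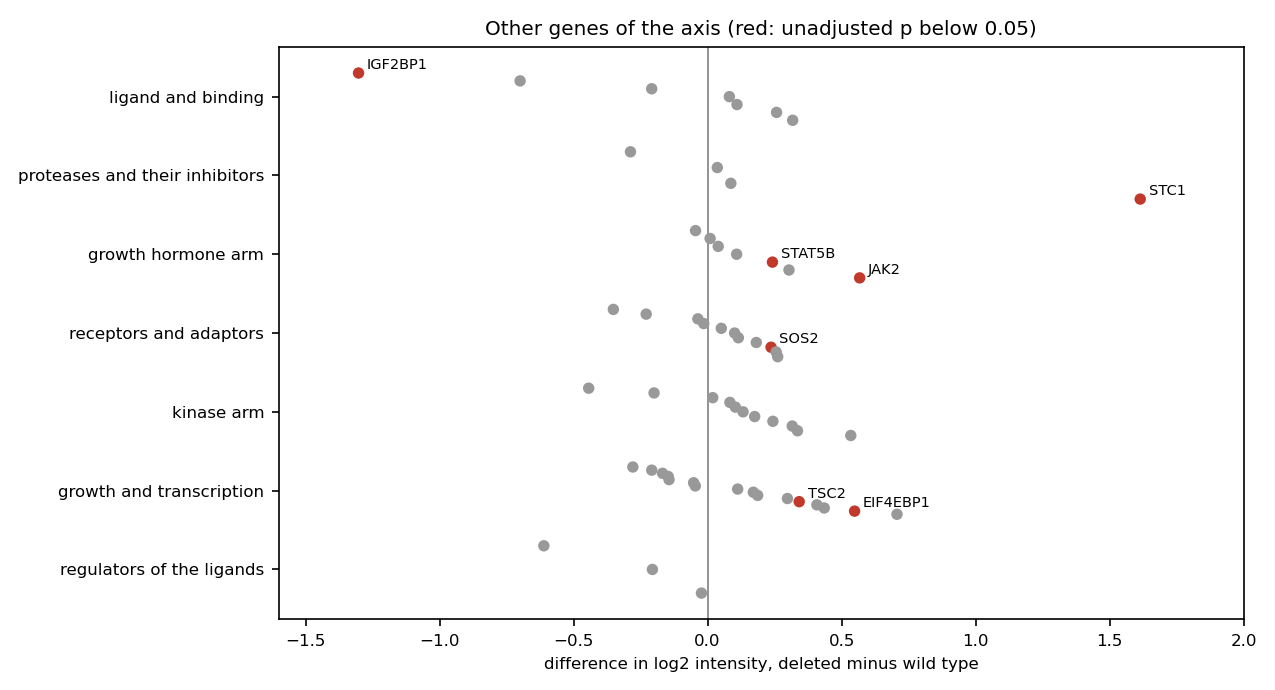
Difference in log2 intensity, deleted minus wild type (x axis), of the 59 measured other genes of the axis, 1 point per gene, grouped by role (y axis), with genes at an unadjusted p below 0.05 in red and named. IGF2BP1 at -1.30 and STC1 at 1.61 lie farthest from 0.

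Among ligand and binding genes, 7 of 8 were measured, 4 with positive and 3 with negative differences. IGF2BP1, an RNA-binding protein of the fetal type that binds IGF2 transcripts, had log2 intensities of 7.73, 7.04, 7.81 and 7.64 across deleted tumours 1 to 4, against 9.02, 8.85 and 8.70 across wild-type tumours 1 to 3. The groups were separate, and the difference was -1.30 (SE 0.20, limma adjusted p = 0.381; exact permutation p = 0.0571). Its relatives IGF2BP2 and IGF2BP3 overlapped between the groups, with differences of 0.26 and -0.70.

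Of the proteases and their inhibitors 4 of 7 were measured. STC1, stanniocalcin 1, a secreted glycoprotein that inhibits the PAPPA proteases, read 11.23, 11.31, 10.86 and 10.41 in deleted and 9.41, 9.68 and 8.92 in wild-type tumours. Every deleted tumour was above every wild-type tumour. The difference was 1.61 (SE 0.27, limma adjusted p = 0.381; exact permutation p = 0.0571), or 3.06-fold. The other 2 STC1 probes also separated the groups, with 0.96 and 0.43, the latter near the bottom of the scale in wild-type tumours (6.52 to 6.64). STC2, its paralog, overlapped between the groups (6.61 to 7.03 in deleted, 6.58 to 6.92 in wild-type tumours). Its probe was also near the bottom of the scale and well above background on only 6 arrays, so it gives no contrast to STC1.

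In the growth hormone arm 7 of 8 genes were measured and 6 had positive differences. JAK2, the kinase of the growth hormone receptor, read 9.17, 9.17, 8.96 and 9.09 in deleted and 8.31, 8.63 and 8.65 in wild-type samples, a difference of 0.57 (SE 0.12, limma adjusted p = 0.457). STAT5B, the factor that it activates, differed by 0.24 (SE 0.10, limma adjusted p = 0.683). For both the groups were separate. The 11 receptors and adaptors measured, of 15, had 7 positive and 4 negative differences, and SOS2, an exchange factor for RAS, was separate at 0.24 (SE 0.09, limma adjusted p = 0.653).

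Downstream of the receptor, 9 of 11 measured kinase arm genes and 9 of 16 growth and transcription genes had positive differences. AKT2, an AKT kinase named after its values were seen, was separate between the groups at 0.18 (SE 0.08, limma adjusted p = 0.713). EIF4EBP1, the translation repressor that mTOR phosphorylates, read 10.33, 10.99, 10.83 and 10.57 in deleted and 10.18, 10.14 and 10.08 in wild-type samples, a difference of 0.55 (SE 0.17, limma adjusted p = 0.569). TSC2, an inhibitor of mTOR signalling, differed by 0.34 (SE 0.12, limma adjusted p = 0.619). Its other probe differed by 0.36 but overlaps the first in position, so the 2 are not separate readings. Relative to the median of all probes under normexp and 75th percentile scaling, EIF4EBP1 (-0.04) and TSC2 (-0.30) lay on the negative side, whereas with the processed intensity and that scaling they differed by 0.68 and 0.36. The 3 measured regulators of the ligands, PLAG1, PLAGL1 and H19, had negative differences (-0.61 to -0.02), each with overlapping groups.

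The 3 members that varied most over the 7 tumours were also set against 10113 other genes, by the root mean square (RMS) difference of their log2 values centred on each gene's mean. The closest to IGFBP5 were FHL1 (0.503), JUN (0.560) and DAGLB. FHL1 shared the low value of wild-type tumour 3, at 8.89 against 11.05 to 12.85 in the other tumours, and JUN read 11.24 there and 13.61 to 14.56 elsewhere. The closest to IGFBP2 were MGLL (0.629), PIR and PTH1R. MGLL, a lipid-cleaving enzyme of fat and other tissues, was highest in deleted tumour 4 at 13.36 and lowest in deleted tumour 2 at 9.05, the same tumours as IGFBP2. The closest to IGF2R was CEACAM23 (0.312), which was highest in wild-type tumour 3 at 8.98 and lowest in deleted tumour 4 at 7.05. Because these genes were picked for values close to those of the member, the shared high and low tumours follow from the choice. They are a description only.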

How the data were processed

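RNA of 7 canine osteosarcomas was hybridised to Agilent Canine V2 arrays, 1 per tumour. Per the file headers, the deposited values are mean spot intensity and median local background intensity on a linear scale, together with a processed intensity, all from Agilent Feature Extraction 10.7.3.1. Multi-array averaging and a correction for an unnamed batch were stated by the authors for their own analysis. No normalized table was used here. From the deposited intensity, values were corrected by normexp (saddle, offset 50), quantile-normalized, put on the log2 scale and averaged per probe with limma 3.58.1 in R 4.3.3. Outlier-marked values (144) were left out, and no sample was dropped or imputed. A probe was kept when well above background on at least 3 arrays, which gave 32309 of 43603 probes. Of 43603 probes 18785 had a symbol, 17 of them through a RefSeq table.

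Groups came from the genotype labels. The comparison used limma's moderated test (two-sided, no covariates, Benjamini-Hochberg over all kept probes) and, for single probes, an exact permutation test over the 35 groupings of 4 and 3 tumours (scipy 1.17.1). The interaction term used sex label. For other genes the probe with the highest mean was taken. Members, role lists and tissue lists were chosen with earlier results of these data known. By rule, the other axis genes to be named were those at an unadjusted p below 0.05. AKT2, GHR, IGFBP1, IGF2BP2, IGF2BP3, STC2, PLAG1, PLAGL1 and H19 did not meet that rule and were named with their values known. For the 3 most variable members the closest genes by RMS difference were sought, of which not all are named. The arrays lay on 5 slides and were extracted in 2 sessions. Slide 4 held deleted tumours 2 and 3 with wild-type tumour 2, and session 2 held deleted tumour 1 with wild-type tumours 1 and 3. The other slides held 1 array each, so slide as a block compares only the tumours of slide 4. With 1 array per tumour the number of arrays limits the precision. Alternatives were other background corrections and scalings, filters, the methods' t-test with Benjamini-Hochberg adjustment, limma options, slide, session, sex label or age as terms, wild-type tumours 1 and 2 as 1, and each tumour left out. Tested on simulated data with 4 against 3 arrays and 200 of 32309 probes changed, limma found 50.5%, 86.5% and 93.5% of the changed probes where the change was 1, 2 and 3 log2 units, with 11, 31 and 25 unchanged probes among its calls. Each simulated probe was drawn independently from a normal distribution, without slide, session or cell content effects. These shares therefore need not hold for the tumours.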

Additional observations from a re-analysis of the deposited data

Results flagged for a closer look

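IGFBP7 in deleted tumour 3 stood apart from the other 3 deleted tumours. The gap to its nearest neighbour was 0.838 of the group's range, above Dixon's critical value for 4 samples. Of 22 groups examined chance gives about 1 in 20 such gaps. For IGF1 the difference between deleted and wild-type tumours had opposite signs in the sex labels FS and MC, and the difference between labels was -2.32 and -1.70 on the log2 scale at its 2 probes. For IGF1R it was -1.28 at 1 of 2 probes. These 3 values rest on a single wild-type tumour labelled MC, and none passed after adjustment over all probes.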

How the results depend on the processing

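The call count over all probes, 0 as reported, was 10 with the processed intensity and 75th percentile scaling, 23 with normexp and 75th percentile scaling, 4 with the processed intensity and quantile normalization, 4 with trend and robust options and 8 with array weights. With single tumours left out it ranged from 0 to 46, the highest without wild-type tumour 3. Calls among the 13 IGF axis probes and the other axis genes were 0 in every setting run. The count of IGF axis probes at an unadjusted p below 0.05, 2 as reported, was 3 with sex label as a covariate, where IGFBP5 joined the 2 IGF2R probes. It was 1 with age as a covariate, where it was IGFBP5 in place of IGF2R. With the methods' t-test, the session term or wild-type tumours 1 and 2 as 1 tumour it was also 1. Slide as a block and the fits within a session left a single tumour in 1 group, so their counts are not given. With single tumours left out the count ranged from 0, without wild-type tumour 3, to 3, and was 1 without wild-type tumour 1 or deleted tumour 3. Of 286 differences of the 13 probes, 14 turned sign, in 7 probes. With normexp and 75th percentile scaling, which put the median of all probes at 0.32, IGF2 was at 0.044 and the second IGF1R probe at 0.27, that is -0.27 and -0.04 relative to that median. IGFBP2 was at 0.53 with array weights, 0.64 with slide as a block, 0.15 with the session term and 1.54 within session 1, and between -0.71 and 0.87 with single tumours left out. Within session 2 the IGF1 probes were at 0.13 and 0.053 and the IGF1R probes at 0.094 and 0.18. IGFBP7 was at -0.14 with age as a covariate. The cause of these changes was not tested. For the 2 probes found by description and the 7 other axis genes at an unadjusted p below 0.05, 0 of 44 and 0 of 154 differences turned sign. No paired analysis was possible because the labels give no replicate numbers shared between groups. With 3 wild-type tumours, 1 tumour decides several values, and slides, sessions and ages are unevenly spread over the groups.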
